A study of Homo sapiens with 6 samples.

Results

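The RNA of matrix proteases and their inhibitors was described in human cells transfected for 48 h with LSD1 siRNA (siLSD1, 3 libraries) or with control siRNA (siCTR, 3 libraries). The genes were a list of 44 matrix metalloproteinases (MMPs), their tissue inhibitors (TIMPs) and the inhibitor RECK, ADAM and ADAMTS family members, the plasminogen activators PLAU and PLAT, the receptor PLAUR, serpins, and the serine proteases HTRA1 and PRSS23. They were taken by gene symbol. Of the 44 genes, 37 had a row in the table of read counts for 15585 genes, and 28 passed the filter on low counts that left 11844 genes for testing. MMP3, MMP11, MMP16, ADAMTS3, ADAMTS9, ADAMTS12 and SERPINB2 had no row in the table used, so their RNA was not analysed here. LSD1, encoded by KDM1A, is a histone demethylase that acts on methylated lysine 4 of histone H3 and is known as a regulator of transcription. The study made this comparison to check whether genes of DNA replication change in expression when LSD1 is depleted. The labels do not say which LSD1 siRNA was used, nor whether libraries of a group came from separate cultures, so the p-values measure only the spread between these libraries.

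Matrix proteases cut the proteins that cells are embedded in, and release growth factors, receptors and adhesion molecules from the cell surface. MMPs, ADAMs and ADAMTS proteases are zinc enzymes that are made as inactive precursors, and TIMPs block their active site. A second system converts plasminogen to plasmin through the activators PLAT and PLAU, and serpins such as SERPINE2 block those activators. In tumours of bone and connective tissue these enzymes are known for their part in invasion and in the turnover of matrix.

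The depth of the libraries lay between 12513511 and 13561344 reads counted to genes. KDM1A, the targeted gene, had 489 ± 16.4 CPM (SD, n = 3) in siCTR, where CPM are reads scaled to a common library size with TMM factors, and 90.4 ± 6.92 in siLSD1, which is 18.5% of the control level. Its log2 fold change was -2.44 ± 0.11 (SE), with an adjusted p of 2.27e-07 in the quasi-likelihood test of edgeR with Benjamini-Hochberg adjustment over all genes tested. In siLSD1 replicate 3 the log-CPM fell with the GC content of the genes, with a slope of -0.191 per 10% of GC, whereas the slopes of the other 5 libraries lay between -0.034 and 0.129.

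The cells are labelled U2OS, a human osteosarcoma line, and their RNA went against this label in part. VIM (9487 to 11615 reads), COL5A1 (3683 to 6044 reads) and ALPL (4162 to 5411 reads) were abundant, but SPARC had at most 3 reads, RUNX2 at most 4 and SP7 at most 3 in any library. CDKN2A had 1841 to 2883 reads and TERT 71 to 109, although both genes are known to be silent in U2OS. FN1, a matrix gene on the mesenchymal marker list, rose in siLSD1 with a log2 fold change of 0.95 and an adjusted p of 0.0216 (edgeR, Benjamini-Hochberg). It had 18.5 CPM in siCTR replicate 2, against 29.4 and 32.2 in replicates 1 and 3. The other tested genes of that list were VIM (-0.02), COL5A1 (0.12), COL1A1 (0.17) and THY1 (0.91). Their adjusted p-values lay between 0.4185 and 0.9592 in the same test. CDKN2A and TERT were chosen after their values were seen. The cells are therefore called here the cells labelled U2OS. Of the epithelial markers, 4 were in the table, and they summed to 7.59 to 9.70 CPM in siCTR and 12.5 to 13.6 CPM in siLSD1, KRT5 had at most 1 read, and the part of these markers in the results was not tested. Most of that difference was CDH1, at 6.15 CPM in siCTR and 10.5 CPM in siLSD1, with a log2 fold change of 0.77 and an adjusted p of 0.0699 (edgeR, Benjamini-Hochberg). EPCAM stood at 2.58 CPM in siCTR and 2.47 CPM in siLSD1. Leukocyte markers summed to at most 3.88 CPM and endothelial markers to at most 0.298 CPM in every library. In bulk libraries, fewer cells of a type and less RNA per cell cannot be told apart.

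The MMPs, ADAMTS proteases and catalytic ADAMs of the list have a zinc-binding site, which is shown here because the ADAMs that only bind ligands lack it. The serine proteases of the list work without zinc and were not searched. The site is read over 11 codons, and capitals mark the codons of its 3 zinc-binding histidines and of the catalytic glutamate. It was found in the coding sequence of 14 of 14 MMPs, 9 of 9 ADAMTS members and 7 of 9 ADAMs. The 2 ADAMs without it were ADAM22 and ADAM23, which are known as receptors in the nervous system. The stretches were read on the coding strand of GRCh38 with GENCODE 44, in exons. They lie at chr20:35263817-35263849 (+) for MMP24, chr16:58040563-58040595 (+) for MMP15, chr11:102523343-102523375 (-) for MMP7, chr1:155056995-155057027 (+) for ADAM15 and chr2:9510078-9510110 (-) for ADAM17, and each is printed 5′ to 3′.
MMP24: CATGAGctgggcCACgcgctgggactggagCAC
MMP15: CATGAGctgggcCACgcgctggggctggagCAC
MMP7: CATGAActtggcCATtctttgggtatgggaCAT
ADAM15: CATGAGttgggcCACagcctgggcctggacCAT
ADAM17: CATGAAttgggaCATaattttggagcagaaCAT
The search allowed a codon for glycine or for asparagine at a fixed place between the middle and the last histidine of the site. All 14 MMPs, the 7 ADAMs with the site and 6 of the 9 ADAMTS members had glycine there. The remaining ADAMTS members had asparagine.

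Promoters are shown for MMP24 and MMP7, the MMPs whose siCTR and siLSD1 libraries did not overlap. RefSeq (GRCh38.p14) gave a 300-base window, from 250 bases before the start of a gene to 50 bases after it, for 29 of the 44 genes. The windows are chr20:35226440-35226739 (+) for MMP24 and chr11:102530698-102530997 (-) for MMP7, and capitals mark the motifs TGAGTCA (bound by AP-1) and TATAAA (the TATA box).
MMP24: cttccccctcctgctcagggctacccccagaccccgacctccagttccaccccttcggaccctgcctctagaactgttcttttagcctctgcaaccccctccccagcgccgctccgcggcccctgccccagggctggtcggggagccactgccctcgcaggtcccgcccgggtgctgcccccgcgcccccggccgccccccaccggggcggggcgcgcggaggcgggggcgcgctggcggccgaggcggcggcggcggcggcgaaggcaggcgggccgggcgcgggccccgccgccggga
MMP7: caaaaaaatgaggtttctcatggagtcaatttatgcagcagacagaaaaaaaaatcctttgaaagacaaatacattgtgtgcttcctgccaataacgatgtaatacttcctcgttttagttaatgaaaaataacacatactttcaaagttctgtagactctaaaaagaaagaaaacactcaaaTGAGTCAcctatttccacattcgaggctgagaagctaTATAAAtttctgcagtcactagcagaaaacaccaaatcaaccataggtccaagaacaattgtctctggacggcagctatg
The 2 windows differed in composition, with 80.0% GC and 37 CpG dinucleotides in MMP24 and 35.7% GC and 4 CpG in MMP7. TGAGTCA, searched on both strands, was found in MMP7 and PLAUR among the 29 genes and in 4.96% of 34796 promoters of the same length. TATAAA, also on both strands, was found in MMP7, MMP10, ADAMTS10 and SERPINB2 and in 11.6% of those promoters. Some listed genes had several windows and counted if any of them held the motif, whereas the shares are per distinct promoter. The MMP24 window held neither string of letters.

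The inhibitors TIMP1 and TIMP2 stood at the top of the 37 genes by level, and most secreted MMPs stood at the bottom beside ADAM12, ADAM19 and ADAM23. Levels of different genes were compared by FPKM, which are reads per kilobase of gene, scaled to the reads of the library. TIMP1, the secreted inhibitor of most MMPs, had the highest mean over the 6 libraries (132.5 FPKM), followed by TIMP2 (99.3), ADAM15 (63.2), the secreted serine protease PRSS23 (52.9) and ADAM9 (50.2). TIMP1 and TIMP2 made up 46.1% of the summed FPKM of the 37 genes, and the 5 highest genes 79.1%. MMP15 (16.2), PLAT (15.9), PLAUR (13.0), ADAM17 (11.1), ADAM10 (9.81) and MMP24 (9.23) followed. MMP15 lay between 11.3 and 18.0 FPKM and PLAT between 11.1 and 21.1 over the libraries, so that the order of these neighbours was within their spread. In all, 21 genes had a mean of at least 1 FPKM and 16 lay under it.

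**Figure D1:**
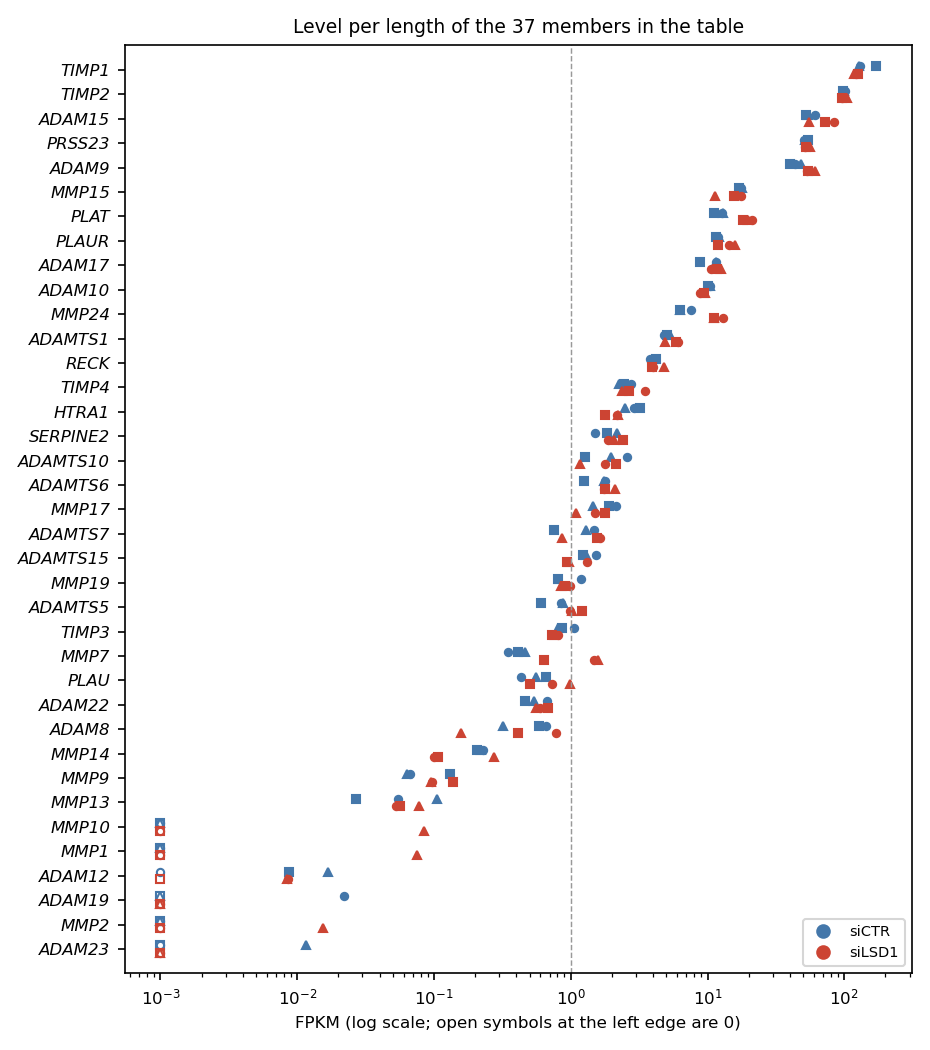
FPKM (log scale) of the 37 genes in each siCTR (blue) and siLSD1 (red) library, ordered by the mean over all 6, with circles, squares and triangles for replicates 1, 2 and 3 and open symbols for values of 0. TIMP1 and TIMP2 stand highest, and 16 genes have a mean under 1 FPKM (dashed line).

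Among the 28 genes tested, MMP24 and PLAT rose in siLSD1 and no gene fell at an adjusted p under 0.05. That count of 2 stands beside 1.07% of all genes tested that were called higher and 0.371% that were called lower. At an unadjusted p under 0.05, 5 genes were higher (MMP24, PLAT, ADAM9, ADAM15 and ADAMTS5), against 7.48% of all genes, and 1 was lower (HTRA1), against 6.55%. By sign, 16 of the 28 were higher and 12 lower, and the median log2 fold change was 0.10, where that of all genes tested was -0.014. In 4 of the 28 every siLSD1 library lay above every siCTR library in CPM, against 11.4% of all genes, and in 4 every siLSD1 library lay below, against 9.97%. The other 22 genes, with an unadjusted p not under 0.05, had log2 fold changes between -0.42 and 0.43, with a median distance of 0.42 from the estimate to the bound of its 95% confidence interval. Changes within such intervals were not detectable with these libraries.

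**Figure D2:**
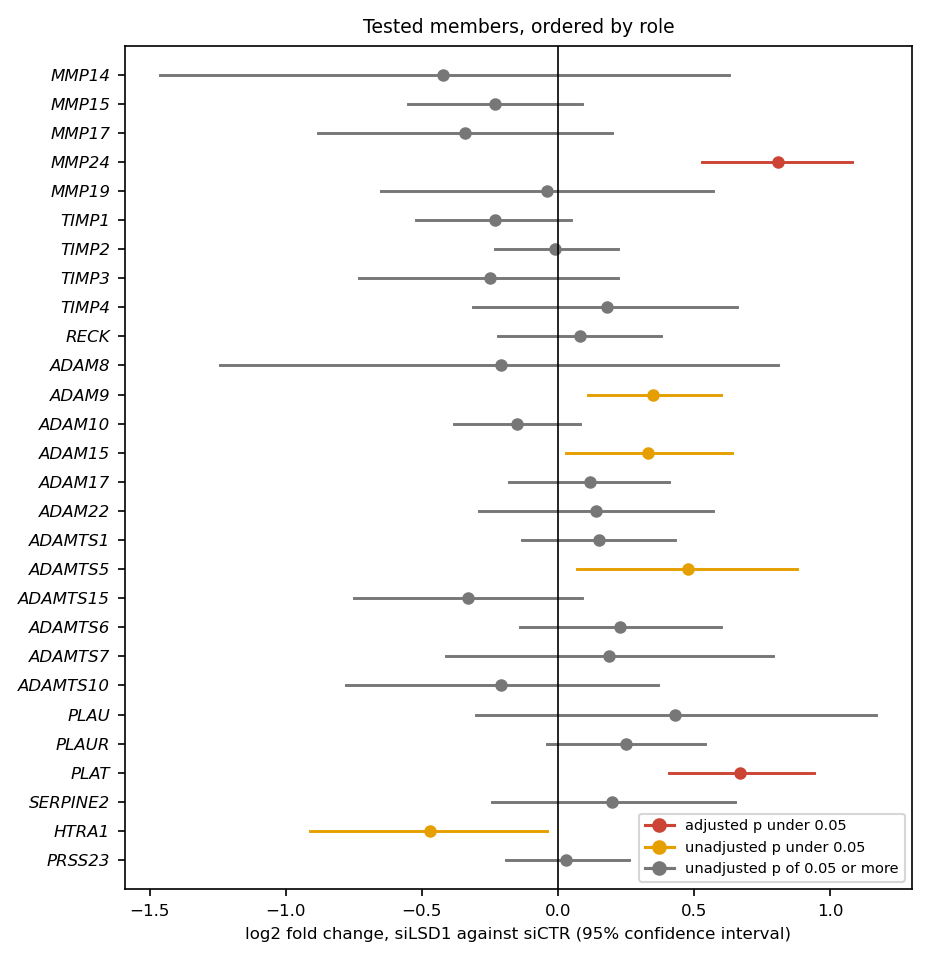
Log2 fold change of siLSD1 against siCTR for the 28 tested genes, ordered by role, with lines for the 95% confidence interval of the edgeR fit. The intervals of MMP24 and PLAT (red, adjusted p under 0.05) lie furthest above 0, and HTRA1 is the one gene with an unadjusted p under 0.05 that lies below 0.

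MMP24 is a membrane-type MMP that is anchored in the cell surface and is best known from neurons. It lies on chromosome 20 (35226690 to 35276998, plus strand, GRCh38) and had 429, 359 and 376 reads in siCTR replicates 1 to 3, against 758, 616 and 668 reads in siLSD1 replicates 1 to 3. Every siLSD1 library lay above every siCTR library. The mean was 29.7 ± 2.93 CPM in siCTR (SD, n = 3) and 51.8 ± 4.05 in siLSD1, and the log2 fold change was 0.81 ± 0.13 (SE) with an adjusted p of 0.0081 (edgeR quasi-likelihood test, Benjamini-Hochberg). Without siCTR replicate 3 the adjusted p was 0.0520, and in the other 5 fits that left out 1 library it was at most 0.0343. Exons of MMP24 share 806 bases with MMP24OS on the opposite strand, and the sources do not say whether reads were counted by strand. MMP24OS itself had 163, 198 and 162 reads in siCTR, against 202, 165 and 166 in siLSD1, with a log2 fold change of 0.02 ± 0.16 (SE).

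None of the other 3 membrane-type MMPs tested passed the test. MMP15, the most abundant MMP of the table, had 956, 934 and 1027 reads in siCTR, against 1001, 837 and 649 in siLSD1, and its log2 fold change of -0.23 ± 0.15 (SE) did not pass the test (edgeR, adjusted p = 0.514). Replicate 3 of siLSD1 stood apart from the other 5 libraries for this gene, whose transcript has a GC content of 65.5%. MMP14, the activator of pro-MMP2, was barely detected, with 11, 10 and 11 reads in siCTR, against 5, 5 and 14 in siLSD1. The estimate of its log2 fold change was -0.42 ± 0.48 (SE), and it was -1.06 without siLSD1 replicate 3, -0.20 without replicate 2, -0.16 without replicate 1 and -0.05 with the second counting. MMP14 passed the filter on low counts through siCTR, where it was higher, and of the siLSD1 libraries only replicate 3 reached the minimum count of 10. The sign of its estimate is therefore no support for a fall. MMP17, which is held in the membrane by a lipid anchor, had a log2 fold change of -0.34 ± 0.25 (SE) from 38 to 71 reads per library. MMP19, a secreted MMP outside the main subgroups, had one of -0.04 ± 0.28 (SE) from 25 to 36 reads.

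The secreted collagenases and gelatinases were at or near 0. MMP1, the interstitial collagenase, had 0 reads in 5 libraries and 2 in siLSD1 replicate 3. MMP2, the gelatinase that MMP14 activates, had 0 reads in 5 libraries and 1 in siLSD1 replicate 3. The stromelysin MMP10 likewise had its only 2 reads in siLSD1 replicate 3. A count of 0 allows up to 3 reads by counting error alone, which is 0.222 to 0.241 CPM in these libraries. No fold was therefore formed for these genes. MMP9, the other gelatinase, had 2, 4 and 2 reads in siCTR, against 3, 4 and 3 in siLSD1. The collagenase MMP13 had 2, 1 and 4 reads in siCTR, against 2, 2 and 3 in siLSD1. None of these 5 genes entered the test.

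MMP7 had more reads than the collagenases and gelatinases, and its groups did not overlap. Matrilysin, its product, is a small MMP that lacks the C-terminal hemopexin domain of most others. MMP7 (chromosome 11, 102520508 to 102530750, minus strand) had 5, 6 and 7 reads in siCTR, against 22, 9 and 24 in siLSD1. It did not pass the filter on low counts. Where the filter was removed or the second counting was used, its log2 fold change was 1.47 to 1.58, with adjusted p-values of 0.118 to 0.139 (edgeR, Benjamini-Hochberg). In the 4 fits with 1 library left out that admitted it, the adjusted p was 0.118 to 0.261 (edgeR, Benjamini-Hochberg). Its siCTR libraries held at most 7 reads, under the minimum count of 10. A filter on these counts could thus admit it only through siLSD1, and fold changes from such fits are no support for a rise. With so few reads, the size of the difference is uncertain.

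Among the inhibitors of metalloproteinases, none of the 5 tested passed the test in either direction. TIMP1 had 2437, 3253 and 2513 reads in siCTR, against 2371, 2303 and 2325 in siLSD1. The groups did not overlap in CPM, but siCTR replicate 2 stood well above the other 5 libraries, and without it the log2 fold change was -0.07. With all libraries it was -0.23 ± 0.13 (SE; edgeR, adjusted p = 0.447). TIMP2, which also takes part in the activation of MMP2, had 5279, 5209 and 5454 reads in siCTR, against 5179, 4916 and 5821 in siLSD1. TIMP2 differed by a log2 fold change of -0.01 (95% confidence interval from -0.23 to 0.22).

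TIMP3, which binds to the matrix and also inhibits ADAM17 and aggrecanases, had 63, 52 and 50 reads in siCTR, against 49, 42 and 48 in siLSD1. The groups did not overlap in CPM, and the log2 fold change was -0.25 ± 0.22 (SE; edgeR, adjusted p = 0.638). TIMP4 had a log2 fold change of 0.18 ± 0.22 (SE). RECK, an inhibitor anchored in the cell membrane, had 239, 268 and 261 reads in siCTR, against 258, 242 and 317 in siLSD1, with a log2 fold change of 0.08 ± 0.14 (SE). Summed over the 4 TIMPs, the level was 246 ± 23.2 FPKM (SD, n = 3) in siCTR and 225 ± 2.21 FPKM in siLSD1. Summed over the 11 MMPs of the table it was 27.7 ± 1.26 FPKM in siCTR and 30.6 ± 4.15 FPKM in siLSD1. No test was made on these sums.

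The ADAMs, most of which are proteases that shed proteins from the cell surface, summed to 122 ± 8.32 FPKM (SD, n = 3) in siCTR and 149 ± 9.32 FPKM in siLSD1 over 9 genes, most of it from ADAM15 and ADAM9. No test was made on these sums. Of the ADAMs, 2 of the 5 catalytic members tested had an unadjusted p under 0.05, against 14.03% of all genes in either direction. ADAM9 had 3346, 3116 and 3822 reads in siCTR, against 4206, 4047 and 4925 in siLSD1. In CPM its groups did not overlap, at 262 ± 21.1 (SD, n = 3) in siCTR and 334 ± 27.2 in siLSD1. The log2 fold change was 0.35 ± 0.11 (SE) with an adjusted p of 0.171 (edgeR, Benjamini-Hochberg), and the adjusted p was 0.0155 when GC content and transcript length were corrected for.

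ADAM15, which carries an integrin-binding disintegrin domain, had 2553, 2223 and 2401 reads in siCTR, against 3639, 2974 and 2441 in siLSD1. Replicates 1 and 2 of siLSD1 stood above all siCTR libraries, and replicate 3 lay among them. Its transcript has a GC content of 63.9%. Its log2 fold change was 0.33 ± 0.14 (SE) with an adjusted p of 0.305 (edgeR, Benjamini-Hochberg). With GC content and transcript length corrected for, it was 0.43, with an adjusted p of 0.00246. The unadjusted p of ADAM15 in edgeR was 0.0765 without siCTR replicate 2, 0.0872 without siCTR replicate 3, 0.185 without siLSD1 replicate 1 (log2 fold change 0.20) and 0.0927 without siLSD1 replicate 2. Exons of ADAM15 share 306 bases with DCST1 on the same strand, and DCST1 had a log2 fold change of 0.26 ± 0.19 (SE).

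ADAM10 and ADAM17 are the main sheddases of Notch and of tumour necrosis factor. ADAM10 had 1755, 1728 and 1843 reads in siCTR, against 1527, 1558 and 1720 in siLSD1. Its groups did not overlap in CPM, with a log2 fold change of -0.15 ± 0.10 (SE; edgeR, adjusted p = 0.541). ADAM17 had 660, 507 and 688 reads in siCTR, against 618, 645 and 748 in siLSD1, and its groups overlapped, with a log2 fold change of 0.12 ± 0.14 (SE). ADAM8 had one of -0.21 ± 0.47 (SE) from 7 to 34 reads, and ADAM22 one of 0.14 ± 0.20 (SE). ADAM12, ADAM19 and ADAM23 had at most 2 reads in any library and were not tested.

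Genes with a high GC content were mostly lowest in siLSD1 replicate 3, among the siLSD1 libraries, over the whole table, at 90.7% of all tested genes with a GC content of at least 60% and 32.4% of those under it. Of the 8 tested genes of the list with a GC content of at least 60%, 6 had their lowest siLSD1 value in that library (MMP15, MMP17, ADAM8, ADAM15, ADAMTS7 and ADAMTS10). Of the 20 genes under 60%, 5 did. This split was made after the values were seen and shows nothing particular to the list.

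Of the ADAMTS proteases, secreted enzymes that cut proteoglycans and procollagens, 6 were tested and 1 had an unadjusted p under 0.05, against the same 14.03% of all genes. ADAMTS5, known as a main aggrecanase of cartilage, had 98, 71 and 106 reads in siCTR, against 119, 137 and 126 in siLSD1. Every siLSD1 library lay above every siCTR library, at 6.99 ± 1.27 CPM in siCTR (SD, n = 3) and 9.73 ± 1.12 in siLSD1. The log2 fold change was 0.48 ± 0.19 (SE) with an adjusted p of 0.270 (edgeR, Benjamini-Hochberg), and the unadjusted p was 0.0862 without siCTR replicate 2 and 0.111 without siLSD1 replicate 2. ADAMTS1, the most abundant of them at 5.35 FPKM, had 323, 343 and 370 reads in siCTR, against 417, 384 and 347 in siLSD1, with a log2 fold change of 0.15 ± 0.13 (SE). The log2 fold changes of ADAMTS15, ADAMTS10, ADAMTS7 and ADAMTS6 were -0.33, -0.21, 0.19 and 0.23, and their groups overlapped.

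In the plasminogen system, PLAT rose in siLSD1. PLAT, the tissue-type plasminogen activator, had 450, 399 and 482 reads in siCTR, against 772, 624 and 734 in siLSD1. The groups were well apart, at 33.9 ± 2.49 CPM in siCTR (SD, n = 3) and 54.0 ± 3.75 in siLSD1. PLAT had a log2 fold change of 0.67 ± 0.12 (SE) with an adjusted p of 0.0160 (edgeR quasi-likelihood test, Benjamini-Hochberg). The adjusted p was 0.0502 without siCTR replicate 2, 0.0587 without siCTR replicate 3, 0.0648 without siLSD1 replicate 1 and 0.0562 without siLSD1 replicate 2, while the log2 fold change stayed between 0.62 and 0.73.

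PLAU, the urokinase-type activator, was low, with 15, 23 and 20 reads in siCTR, against 26, 17 and 36 in siLSD1. Its groups overlapped, and the log2 fold change was 0.43 ± 0.34 (SE; edgeR, adjusted p = 0.595). The urokinase receptor PLAUR had 336, 332 and 358 reads in siCTR, against 423, 330 and 475 in siLSD1. The siLSD1 replicate 2 library lay among the controls, and the log2 fold change was 0.25 ± 0.13 (SE; edgeR, adjusted p = 0.429). SERPINE2, also called protease nexin-1, inhibits PLAT and PLAU and had 61, 75 and 92 reads in siCTR, against 78, 95 and 89 in siLSD1, with a log2 fold change of 0.20 ± 0.21 (SE).

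HTRA1 and PRSS23 are secreted serine proteases outside the plasminogen system. HTRA1, which cuts fibronectin and other matrix proteins, had 85, 96 and 76 reads in siCTR, against 66, 51 and 69 in siLSD1. The siLSD1 libraries all lay below the siCTR libraries, at 6.56 ± 0.912 CPM in siCTR (SD, n = 3) and 4.71 ± 0.543 in siLSD1. The log2 fold change was -0.47 ± 0.20 (SE) with an adjusted p of 0.305 (edgeR, Benjamini-Hochberg). Its unadjusted p in edgeR was 0.0661 without siCTR replicate 1, 0.112 without siCTR replicate 2, 0.0523 without siLSD1 replicate 1 and 0.145 without siLSD1 replicate 2. PRSS23 had 3841 to 4520 reads in the 6 libraries and a log2 fold change of 0.03 ± 0.11 (SE).

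**Figure D3:**
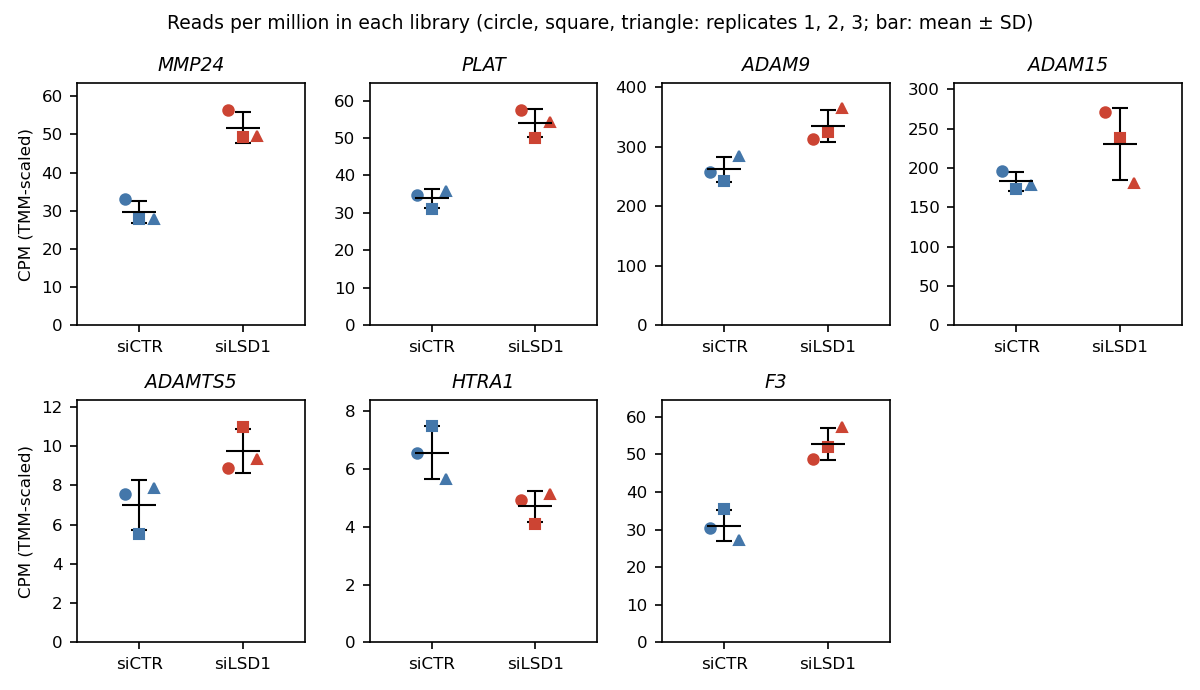
TMM-scaled CPM in each library for the 6 listed genes with an unadjusted p under 0.05 and for F3, with circles, squares and triangles for replicates 1, 2 and 3 and bars for the mean ± SD (n = 3). The siCTR and siLSD1 libraries do not overlap in any panel except ADAM15, where siLSD1 replicate 3 lies among the controls.

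A wider list of 71 other genes of matrix proteolysis was read in the same fit, and 36 of them were tested. At an unadjusted p under 0.05, 4 were higher, against 7.48% of all genes, and 1 was lower, against 6.55%. At an adjusted p under 0.05, 1 was higher (F3), against 1.07% of all genes, and none was lower, against 0.371%. The median log2 fold change was 0.01.

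F3, or tissue factor, which starts coagulation, had 397, 455 and 365 reads in siCTR, against 655, 649 and 773 in siLSD1. Its groups did not overlap, and the log2 fold change was 0.76 ± 0.13 (SE) with an adjusted p of 0.0141 (edgeR, Benjamini-Hochberg). The adjusted p of F3 was 0.0740 without siCTR replicate 3 and 0.0586 without siLSD1 replicate 2.

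The other genes of the wider list with an unadjusted p under 0.05 were the serpin SERPINI1 (log2 fold change 0.80 ± 0.31 SE, 14 to 35 reads), ADAMTS16 (0.56 ± 0.26, 32 to 90 reads), ADAMTS20 (1.01 ± 0.42, 5 to 21 reads) and the lysosomal protease CTSV (-0.63 ± 0.23, 40 to 92 reads). Their adjusted p-values lay between 0.238 and 0.349 (edgeR, Benjamini-Hochberg). ADAMTS20 had 15, 5 and 8 reads in siCTR, against 16, 20 and 21 in siLSD1. It thus passed the filter on low counts through siLSD1, where it was high. Its place among the higher genes of the wider list is therefore no support for a rise. Leaving out 1 library moved ADAMTS16 between 0.34 (unadjusted p = 0.170, without siCTR replicate 2, in edgeR) and 0.70, and ADAMTS20 between 0.73 (unadjusted p = 0.122, without siCTR replicate 2) and 1.53. Each of these 4 genes had an unadjusted p above 0.05 in at least 2 of the 6 fits with 1 library left out. FURIN, the convertase that activates membrane-type MMPs and ADAMs, had 2381, 1847 and 2278 reads in siCTR, against 2449, 2183 and 1990 in siLSD1. Its groups overlapped, with a log2 fold change of 0.02 ± 0.13 (SE).

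**Figure D4:**
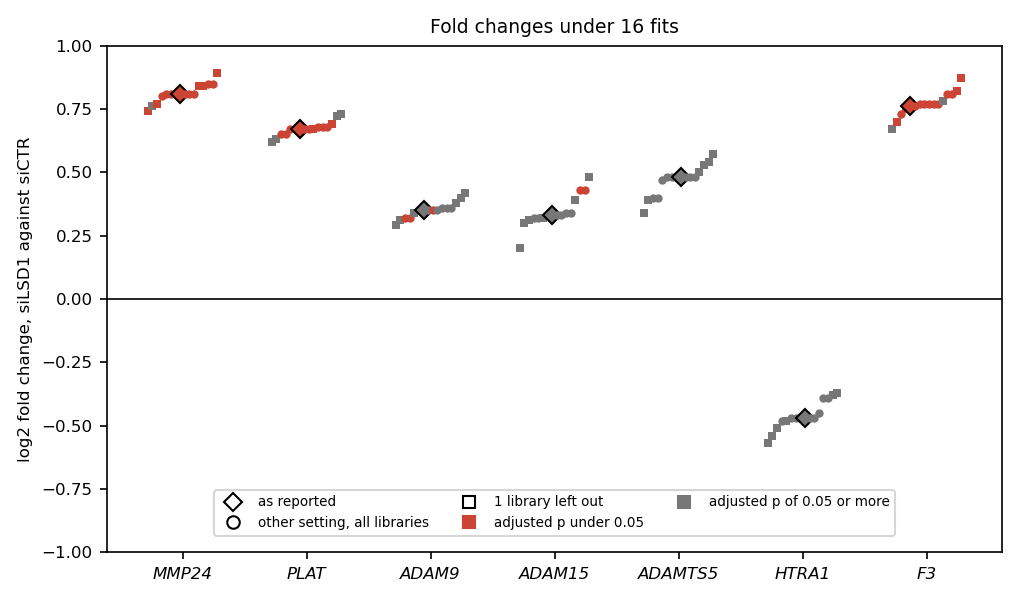
Log2 fold changes of the same 7 genes in 16 fits, which are the fit as reported (diamonds), 9 other settings with all libraries (circles) and 6 fits with 1 library left out (squares), in red where the adjusted p was under 0.05. Each gene keeps its sign in every fit, and all grey symbols of MMP24, PLAT and F3 are fits with 1 library left out.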

How the data were processed

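RNA-seq libraries of cells labelled U2OS were analysed, 3 siCTR and 3 siLSD1, grouped and numbered from their labels. Reads were aligned by the authors with STAR, and the authors deposited whole read counts per gene and FPKM values for the 6 libraries. Genome build, annotation, counter and strandedness are not given in the sources used here. The authors' deposited table also holds log2 fold changes, p-values and a normalized signal, and tables of library pairs hold a second counting. The log2 fold changes, p-values and normalized signal were not used.

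Read counts were tested with edgeR 4.0.16 in R 4.3.3 (TMM, filterByExpr with a minimum count of 10, glmQLFit and glmQLFTest) without covariates, with Benjamini-Hochberg adjustment over 11844 genes. The procedure was tested on simulated data. Totals of 12513511 to 13561344 reads set the precision, with a biological coefficient of variation of 12.6%. Counts of libraries in a group differed by more than sampling noise. FPKM served only to compare genes and were not tested. Coordinates and exon overlaps come from GENCODE 44 on GRCh38, in which 15334 of 15585 symbols matched (384 through RefSeq synonyms).

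The genes, the wider list and the tests were chosen with earlier results of these data known. Read counts are given for listed genes with an unadjusted p under 0.05 and for 12 genes named for their role, whatever their values (MMP1, MMP2, MMP14, TIMP1, TIMP2, TIMP3, RECK, ADAM10, ADAM17, PLAU, PLAUR and SERPINE2). Other genes are given by fold change, range or counts, and the reads of MMP7, MMP9, MMP10, MMP13, MMP15 and ADAMTS1 were added after their values were seen. Genes of the wider list are named with an unadjusted p under 0.05, plus FURIN. One further gene was left out of that list, which then held 71 genes, and is not reported here. Alternatives were DESeq2 1.42.0, limma-voom (limma 3.58.1), library size without TMM, no filter, at least 1 CPM in 3 libraries, a replicate block, a lowess correction (span 0.3) for GC content and transcript length, both together, the second counting, and leaving out each library. LRP1 is named because its call changed under an alternative.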

Additional observations from a re-analysis of the deposited data

How the results depend on the processing

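Under the 9 alternatives with all libraries, MMP24, PLAT, F3 and KDM1A stayed at an adjusted p under 0.05. Of the members, 4 were higher at an adjusted p under 0.05 with the GC and length correction and 4 with that correction and the block (ADAM9 and ADAM15 were added), against 2 as reported, while calls over all genes in either direction went from 1.44% to 7.45% and 11.1%. Members lower at an unadjusted p under 0.05 were 0 with DESeq2 and 2 with the replicate block, against 1. With the GC and length correction the count stayed at 1, but the gene was ADAM10 (edgeR, unadjusted p = 0.0202) and not HTRA1 (0.0561). Genes of the wider list higher at an unadjusted p were 2 with DESeq2 and 3 to 6 with the other 8 alternatives, against 4, and those lower were 2 with limma-voom, 2 with the second counting, 3 with the block and 3 with the block and GC correction, against 1. The log2 fold change of TIMP2 turned to 0.02 with the second counting. The cause was not tested.

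With 1 library left out, members higher at an adjusted p ranged from 0 to 2, members lower at an unadjusted p from 0 to 2, wider-list genes higher at an unadjusted p from 1 to 4 and those lower from 0 to 2. The log2 fold change ranged from -0.06 to 0.02 for TIMP2, from -0.07 to 0.11 for FURIN and from -0.02 to 0.14 for RECK. It lay between 0.01 and 0.18 for ADAM17, between 0.07 and 0.34 for SERPINE2 and between -0.34 and -0.14 for TIMP3. For PLAU it lay between 0.17 and 0.65, and for PLAUR between 0.15 and 0.36.

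Over all genes, 171 had an adjusted p under 0.05 as reported (74.3% higher), 323 with DESeq2, 290 without the filter, 875 with the GC and length correction (60.7% higher), 897 with the replicate block, 1306 with both, and 58 to 136 with 1 library left out. Same-numbered libraries deviated together with correlations of 0.328, 0.074 and 0.310 over the tested genes, and of 0.445, 0.135 and 0.505 over genes with a mean log-CPM above 5. Every library correlated best with its own number, which is a hint from the data. The authors also deposited tables by same-numbered pairs, but the labels do not say what a number marks, and with 0.074 over all tested genes the numbers were not taken as pairs. The replicate block also brought ADAM9 (0.0319, against 0.171) and LRP1 of the wider list (0.0105, against 0.409) under an adjusted p of 0.05. Genes with few reads, such as MMP14 or PLAU, had standard errors of 0.48 and 0.34 on the log2 scale, which limits what they can show.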
